A study of Mus musculus with 16 samples.

Results

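The 10 genes described here make, degrade or receive prostaglandins: the cyclooxygenases *Ptgs1* and *Ptgs2*, the synthases *Ptges*, *Ptgds* and *Ptgis*, the inactivating enzyme *Hpgd* and the prostaglandin E2 receptors *Ptger1*, *Ptger2*, *Ptger3* and *Ptger4*. They were taken by symbol from the RNA-seq table, which held 31274 genes, and all 10 were present. Gene expression had been measured as FPKM, fragment counts scaled by exon length and library size, in whole seminal vesicles (SV) of C57BL/6 mice at week 5, in 16 samples of 4 groups. WT males had received corn oil (WT-veh, n = 4) or diethylstilboestrol (DES), a synthetic oestrogen, by subcutaneous injection over days 1 to 5 of life, at a dose of 2 µg per pup each day (WT-DES, n = 4). Males without oestrogen receptor α in any tissue, bred from heterozygotes, had received the same oil (αERKO-veh, n = 4) or the same DES (αERKO-DES, n = 4). RNA came from individual mice, except that the study's methods describe pooled mice for WT-DES, and 3 pools are stated there beside 4 deposited samples. The WT pups came from purchased pregnant females and the αERKO pups from heterozygous breeding, so genotype and source cannot be told apart.

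Cyclooxygenases turn arachidonic acid into prostaglandin H2, *Ptgs1* (COX-1) being the constitutive and *Ptgs2* (COX-2) the inducible form. Terminal synthases then make prostaglandin E2 (*Ptges*), prostaglandin D2 (*Ptgds*) or prostacyclin (*Ptgis*), while 15-hydroxyprostaglandin dehydrogenase (*Hpgd*) starts their breakdown. Prostaglandin E2 acts through G protein-coupled receptors: EP1 (*Ptger1*) raises calcium, EP2 (*Ptger2*) and EP4 (*Ptger4*) raise cyclic AMP, and EP3 (*Ptger3*) mostly lowers it. Prostaglandins were first found in seminal fluid, and seminal vesicle is a classical source of the enzymes.

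*Esr1*, the gene removed in αERKO, measured 4.43, 4.55, 3.70 and 2.81 FPKM in WT-veh and 8.74, 19.64, 12.99 and 15.71 FPKM in WT-DES. It measured 1.30, 1.59, 1.75 and 1.43 FPKM in αERKO-veh and 0.91, 1.15, 1.51 and 1.64 FPKM in αERKO-DES, so every αERKO sample lay below every WT sample and none was at 0. The 8 seminal vesicle secretory markers (*Svs1* to *Svs6* and *Pate4*) summed to between 49597 and 57994 FPKM in WT-veh and between 2436 and 7951 FPKM in WT-DES. In αERKO the sums were 30143 to 47254 FPKM with vehicle and 33533 to 63298 FPKM with DES. All 8 fell in WT-DES against WT-veh. The FPKM of all genes summed to between 590446 and 652708 in WT-veh and between 375207 and 437619 in WT-DES.

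The promoters of 4 genes are shown because these receptors and the inactivating enzyme carried the differences between WT-DES and WT-veh that the text turns on: *Ptger4* and *Ptger2* were higher, *Ptger3* and *Hpgd* lower. Each is the 250 bases before RefSeq's transcription start (GRCm38.p6), read 5′ to 3′ on the gene's strand. Capitals mark a CCAAT box (CCAAT) or a GC box (GGGCGG), on either strand.
Ptger4 (chr15:5244188-5244437, minus strand): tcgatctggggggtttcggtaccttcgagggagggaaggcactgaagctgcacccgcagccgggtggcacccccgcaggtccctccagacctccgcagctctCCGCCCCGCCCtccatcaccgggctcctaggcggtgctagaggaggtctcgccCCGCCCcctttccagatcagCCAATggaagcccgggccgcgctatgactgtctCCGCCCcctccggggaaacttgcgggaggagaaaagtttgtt
Ptger2 (chr14:44987861-44988110, plus strand): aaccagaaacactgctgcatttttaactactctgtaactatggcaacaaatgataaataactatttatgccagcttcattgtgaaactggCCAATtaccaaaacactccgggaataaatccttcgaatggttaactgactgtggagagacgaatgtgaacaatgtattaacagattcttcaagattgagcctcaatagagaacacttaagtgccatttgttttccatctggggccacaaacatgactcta
Ptger3 (chr3:157566626-157566875, plus strand): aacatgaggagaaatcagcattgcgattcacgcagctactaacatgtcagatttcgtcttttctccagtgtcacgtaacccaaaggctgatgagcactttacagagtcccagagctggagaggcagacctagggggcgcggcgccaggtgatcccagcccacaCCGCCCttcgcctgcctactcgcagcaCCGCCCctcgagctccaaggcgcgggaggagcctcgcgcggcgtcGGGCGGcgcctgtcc
Hpgd (chr8:56294302-56294551, plus strand): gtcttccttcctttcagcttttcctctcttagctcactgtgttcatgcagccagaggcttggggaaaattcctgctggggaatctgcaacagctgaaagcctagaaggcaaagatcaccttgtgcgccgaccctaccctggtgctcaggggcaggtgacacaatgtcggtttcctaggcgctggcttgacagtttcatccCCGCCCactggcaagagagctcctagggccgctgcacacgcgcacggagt

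RefSeq promoter entries matched 8 of the 10 genes, and *Ptgis* and *Ptger1* had none. In the windows printed, GC boxes were found 4 times for *Ptger4*, 3 times for *Ptger3*, 1 time for *Hpgd* and 0 times for *Ptger2*, beside 32.7% of 32851 RefSeq promoters of the same length that held at least 1. Of the *Ptger4* GC boxes, those starting 148 and 143 bases before the start share a base. A CCAAT box lay 75 bases before the *Ptger4* start and 160 bases before the *Ptger2* start, beside 33.8% of all promoters with one. None of the 4 windows held the letters of a full oestrogen response element (GGTCA, 3 bases of any kind, then TGACC), which 21 of all promoters (0.0639%) held, or its single arm GGTCA, which 35.2% held. The single arm, whose letters also form each end of the full element, was found in the *Ptgs1* and *Ptges* windows, 12 and 33 bases before the start. AP-1 letters (TGANTCA, 6.75% of all promoters) were found in the *Ptgds* window, 35 bases before the start. CRE letters (TGACGTCA, 1.55%), the E-box CACGTG (6.02%) and TATAAA (12.4%) were in none of the 8. These are matches of letters within short windows, and binding was not measured here.

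In WT-veh, *Hpgd* had the highest level of the 10 genes, at 133 ± 7.83 FPKM (SD, n = 4). FPKM is scaled by transcript length, so levels of different genes can be set side by side. *Ptges* followed at 46.3 ± 3.68 FPKM and *Ptgs1* at 29.3 ± 2.13 FPKM. *Ptger3* (25.5 ± 2.87 FPKM), *Ptgis* (23.8 ± 1.95 FPKM) and *Ptgs2* (22.5 ± 5.69 FPKM) came next. From *Ptgs1* down to *Ptger1* (16.5 ± 1.53 FPKM), each gene's samples overlapped those of its neighbour in this order. *Ptgds* (3.98 ± 0.868 FPKM), *Ptger4* (1.84 ± 0.294 FPKM) and *Ptger2* (0.158 ± 0.0806 FPKM) lay apart from each other below these.

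**Figure D1:**
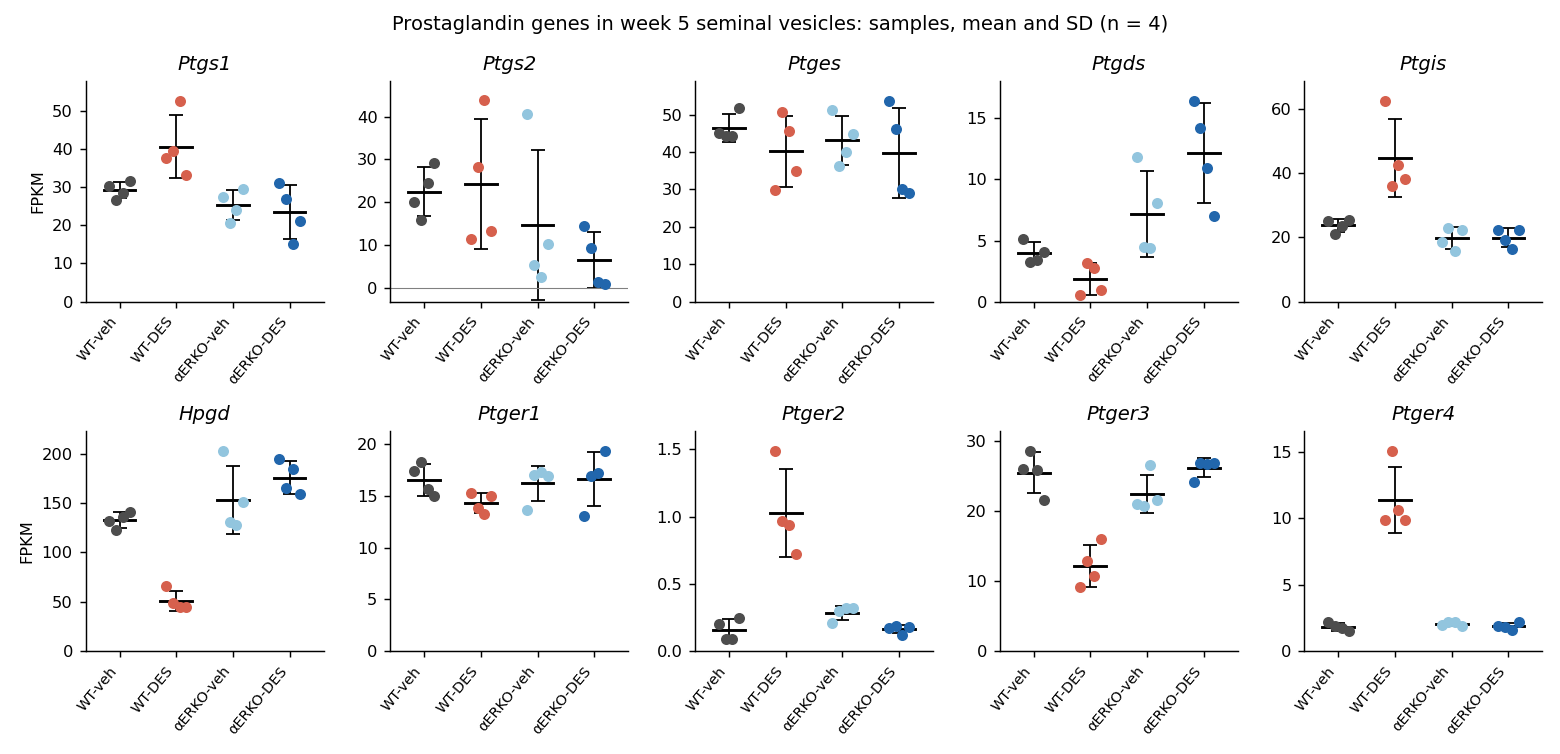
FPKM of the 10 prostaglandin genes (y axes, linear, a scale for each gene) in the 4 groups of week 5 seminal vesicles (x axes); points are samples, horizontal lines group means and bars SD (n = 4), which reach below 0 for Ptgs2 in αERKO-veh. The 4 WT-DES samples lie outside the range of the other 12 for Ptger4, Ptger2, Ptger3, Hpgd and Ptgis. They do so narrowly for Ptgs1 and Ptgds, while the points for Ptges and Ptger1 overlap in all groups. Among all genes tested 52.7% were called between WT-DES and WT-veh, and the share separated in this way was not counted.

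To ask what neonatal DES did to these genes with the receptor present, WT-DES was compared with WT-veh by limma on log2(FPKM + 1), with Benjamini-Hochberg adjustment over 15988 genes, those whose mean FPKM exceeded 1 in any group. A gene was called when its adjusted p did not exceed 0.05, its group means differed at least 1.5-fold and 1 of these means was above 1 FPKM. Of the 10 genes, *Ptger4*, *Ptger2* and *Ptgis* rose and *Ptger3*, *Hpgd* and *Ptgds* fell. Among all genes tested 52.7% were called (28.9% higher and 23.9% lower), so a count of 6 of 10 is near the background, and what follows describes the single genes. The median log2 change of the 10 was -0.13, beside -0.01 over all genes tested. With samples scaled to equal totals without the 20 most abundant genes, 4 of the 10 were called higher and 2 lower, where 8576 of all genes tested were called and 78.6% of those were higher.

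The largest difference on the log2 scale was in *Ptger4* (EP4; chr15:5206661-5244187, minus strand). It measured 2.22, 1.90, 1.72 and 1.53 FPKM in WT-veh and 9.89, 15.07, 10.60 and 9.88 FPKM in WT-DES. All WT-DES samples were above all WT-veh samples, and WT-DES replicate 2 was the highest. The mean rose 6.17-fold, with a log2 change of 2.11 ± 0.122 (SE; 95% interval 1.85 to 2.37) and an adjusted p of 2.29e-09. In αERKO the same gene measured 2.01, 2.20, 2.17 and 1.90 FPKM with vehicle and 1.90, 1.81, 1.63 and 2.17 FPKM with DES. These groups overlapped each other and WT-veh, and the log2 change with DES in αERKO was -0.10 (95% interval -0.36 to 0.16). The exons of *Ptger4* share 1015 of 6648 bases (15.3%) with a processed pseudogene on the opposite strand.

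*Ptger2* (EP2; chr14:44988195-45003820, plus strand), the other receptor that raises cyclic AMP, was the lowest of the 10 genes. It measured 0.20, 0.09, 0.09 and 0.25 FPKM in WT-veh and 1.49, 0.97, 0.94 and 0.72 FPKM in WT-DES. The WT-DES samples were again all above the others, and the ratio of means was 6.54, with a log2(FPKM + 1) change of 0.80 ± 0.115 (SE; adjusted p = 1.70e-05). It was tested only because the WT-DES mean (1.03 FPKM) passed the minimum of 1, and with quantile normalization or a correction for transcript length that mean fell under the minimum and it was not called. Without WT-DES replicate 1 the mean was also under the minimum and the gene was not tested, so 1 sample decides this call. With a pseudocount of 0.1 the log2 change was 2.15. In αERKO it measured 0.21, 0.30, 0.32 and 0.32 FPKM with vehicle and 0.17, 0.19, 0.12 and 0.18 FPKM with DES, which did not overlap but did not pass the test (log2 change -0.14, adjusted p = 0.451).

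*Ptger3* (EP3; chr3:157566892-157645888, plus strand) moved the other way. It measured 25.99, 28.65, 25.85 and 21.69 FPKM in WT-veh and 9.23, 12.92, 10.71 and 16.07 FPKM in WT-DES. Every WT-DES sample was below every WT-veh sample, the mean was 2.09-fold lower, and the log2 change was -1.02 ± 0.133 (SE; adjusted p = 6.23e-06). Scaling to equal totals without the 20 most abundant genes gave a smaller log2 change of -0.62 that was still called. In αERKO, *Ptger3* measured 21.05, 20.74, 26.57 and 21.59 FPKM with vehicle and 24.19, 26.94, 26.73 and 26.97 FPKM with DES. The αERKO groups overlapped (log2 change 0.22, 95% interval -0.07 to 0.50).

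*Ptger1* (EP1; chr8:83666678-83672753, plus strand) ranged from 14.92 to 18.22 FPKM in WT-veh and from 13.21 to 15.30 FPKM in WT-DES, and in αERKO from 13.65 to 17.31 FPKM with vehicle and from 13.05 to 19.32 FPKM with DES. It was not called in any comparison, and the WT-DES change was -0.19 (95% interval -0.42 to 0.04). Its sign turned to 0.22 with equal totals without the 20 most abundant genes. How reads were assigned where genes overlap is not given in the sources used here, so the *Ptger1* level is uncertain.

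On the scale of the deposited FPKM, the EP receptors therefore changed in make-up more than in sum. The share of *Ptger3* in the summed FPKM of the 4 EP receptors was 56.5 to 59.8% in WT-veh (median 57.7%) and 25.7 to 38.6% in WT-DES (median 30.2%). That of *Ptger4* was 3.89 to 4.85% in WT-veh (median 3.98%) and 23.7 to 35.2% in WT-DES (median 28.7%). Medians of the sum itself were 44.5 FPKM in WT-veh and 38.8 FPKM in WT-DES. The sum depends on how whole samples are scaled, which was not varied for it, while shares within a sample do not. Without *Ptger1*, whose reads are uncertain, the median share of *Ptger3* was 92.9% in WT-veh and 46.5% in WT-DES, and that of *Ptger4* was 6.37% and 47.8%. The αERKO groups had *Ptger3* shares of 51.6 to 57.3% with vehicle and 55.4 to 61.5% with DES, and *Ptger4* shares of 4.67 to 5.47% and 3.57 to 4.83%. Shares are a description of FPKM values and were not tested.

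**Figure D2:**
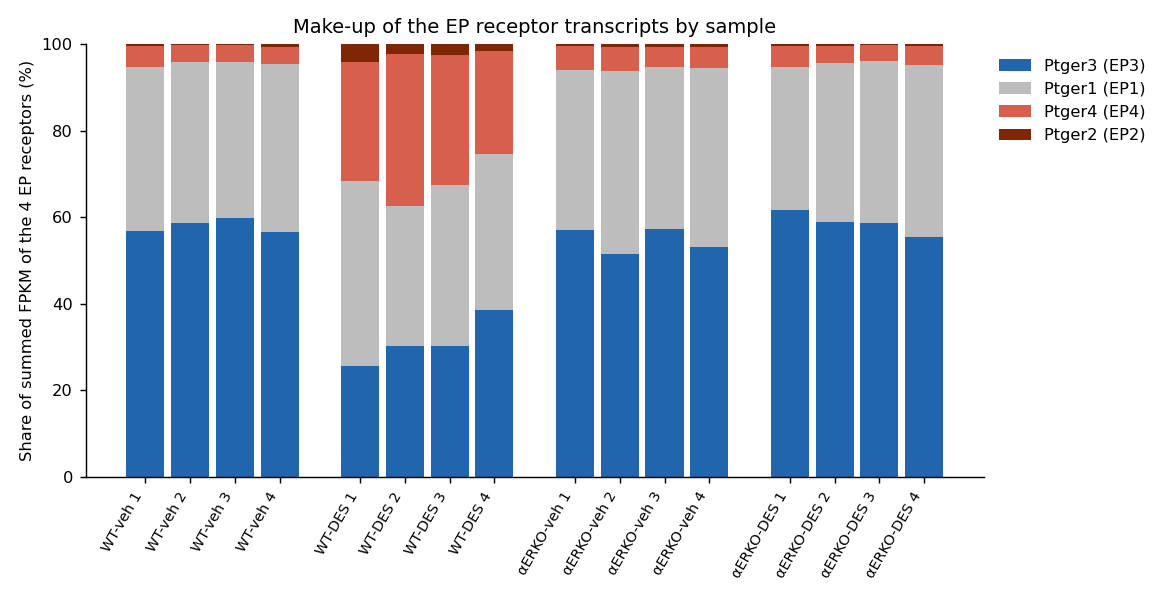
Share of each EP receptor in the summed FPKM of Ptger1, Ptger2, Ptger3 and Ptger4 (y axis, percent) in each of the 16 samples (x axis, 1 stacked bar per sample). Ptger4 takes 23.7 to 35.2% in the WT-DES samples and at most 5.47% in the other 12, and Ptger3 takes 25.7 to 38.6% in WT-DES and at least 51.6% elsewhere.

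*Hpgd* (chr8:56294585-56321043, plus strand), the enzyme that inactivates prostaglandins, fell most among the enzymes of the 10 genes. It measured 131.84, 122.38, 136.26 and 140.69 FPKM in WT-veh and 66.26, 48.42, 44.99 and 45.25 FPKM in WT-DES. All WT-DES samples were below all WT-veh samples, with replicate 1 the highest of the 4, and the mean was 2.59-fold lower (log2 change -1.37 ± 0.143 SE, adjusted p = 6.75e-07). With quantile normalization the log2 change was -0.85 and still called. In αERKO it measured 202.81, 130.52, 128.26 and 150.91 FPKM with vehicle and 194.01, 164.85, 184.55 and 158.98 FPKM with DES. These groups overlapped, with a log2 change of 0.22 (95% interval -0.09 to 0.52).

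*Ptgis* (chr2:167191805-167240604, minus strand), the prostacyclin synthase, rose. It measured 25.12, 21.16, 23.48 and 25.41 FPKM in WT-veh and 62.53, 36.12, 42.63 and 38.09 FPKM in WT-DES. The groups did not overlap, and the mean was 1.88-fold higher (log2 change 0.86 ± 0.159 SE, adjusted p = 0.000195). In αERKO, values ran from 15.72 to 22.86 FPKM with vehicle and from 16.26 to 22.34 FPKM with DES, a log2 change of 0.01 (95% interval -0.33 to 0.35).

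*Ptgds* (chr2:25466709-25470046, minus strand), the lipocalin-type prostaglandin D synthase, measured 5.16, 3.26, 3.40 and 4.10 FPKM in WT-veh and 0.52, 3.16, 2.78 and 0.96 FPKM in WT-DES. WT-DES replicates 1 and 4 were well below the other WT-DES samples, and the 2 others lay just under the lowest WT-veh sample. The mean was 2.15-fold lower (log2 change -0.91 ± 0.350 SE, adjusted p = 0.0284). This call was lost without WT-veh replicate 1 (adjusted p = 0.0748), WT-veh replicate 4 (0.0536), WT-DES replicate 1 (0.0970) or WT-DES replicate 4 (0.0809). It was also lost with equal totals (0.132), with a correction for transcript length (0.147), with sample weights (0.0502), at an adjusted p of at most 0.01 and where a mean above 5 FPKM was required. In αERKO, *Ptgds* measured 11.83, 4.49, 4.36 and 8.05 FPKM with vehicle and 16.41, 14.20, 10.97 and 6.98 FPKM with DES. All αERKO-DES samples were above all samples of either WT group, while the αERKO groups overlapped each other.

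*Ptgs1* (COX-1; chr2:36230426-36252272, plus strand) measured 30.34, 26.68, 28.56 and 31.57 FPKM in WT-veh and 37.51, 39.47, 52.55 and 33.07 FPKM in WT-DES. The groups did not overlap, and the log2 change of 0.44 ± 0.186 (SE) had an adjusted p of 0.0435, but the ratio of means, 1.39, was under 1.5 and the gene was not called. It was called with quantile normalization (log2 change 0.77) and with equal totals (0.86). In αERKO, values ran from 20.55 to 29.54 FPKM with vehicle and from 14.99 to 31.09 FPKM with DES.

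*Ptges* (chr2:30889471-30929863, minus strand), the inducible prostaglandin E synthase, ranged from 44.15 to 51.80 FPKM in WT-veh and from 29.88 to 50.59 FPKM in WT-DES, and in αERKO from 36.18 to 51.29 FPKM with vehicle and from 29.09 to 53.59 FPKM with DES. All groups overlapped and no comparison called it. Its WT-DES change was -0.23 (95% interval -0.64 to 0.19), and the sign turned to 0.15 with quantile normalization and 0.20 with equal totals.

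*Ptgs2* (COX-2; chr1:150100031-150108227, plus strand) had the largest SE of the 10 genes on the log2 scale. It measured 20.13, 16, 24.62 and 29.20 FPKM in WT-veh and 11.55, 28.32, 43.91 and 13.28 FPKM in WT-DES. WT-DES replicates 1 and 4 lay below the WT-veh samples and replicate 3 above them, and no change was detected. The log2 change was -0.06 ± 0.743 (SE; 95% interval -1.64 to 1.53, adjusted p = 0.949), while the ratio of mean FPKM was 1.08, in the other direction. In αERKO it measured 40.54, 5.32, 2.51 and 10.32 FPKM with vehicle and 14.37, 9.29, 1.45 and 0.96 FPKM with DES. Each αERKO group thus held samples more than 10-fold apart. The model shares a variance over all groups, so this spread also enters the SE of the WT comparison. The share of *Ptgs2* in the summed FPKM of both cyclooxygenases ran from 37.5 to 48.1% in WT-veh, and from 23.5 to 45.5% in WT-DES. In αERKO it ran from 9.44 to 59.7% with vehicle and from 4.35 to 31.6% with DES.

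Genes of the neighbouring ducts varied between the same samples. *Akr1b7*, an aldo-keto reductase abundant in vas deferens, measured 752.58, 84.67, 24.44 and 214.84 FPKM in αERKO-veh and 555.34, 264.16, 14.87 and 9.06 FPKM in αERKO-DES. It is not in the marker list below and is counted further on among the other prostanoid synthases. *Crisp1*, a secretory protein of the epididymis, measured 428.65, 33.03, 19.59 and 132.84 FPKM in αERKO-veh and 287.51, 145.67, 5.11 and 3.99 FPKM in αERKO-DES. Within αERKO-veh, and again within αERKO-DES, the order of the 4 samples from highest to lowest was the same for *Ptgs2*, *Akr1b7* and *Crisp1*. In WT-veh *Crisp1* had the order of *Ptgs2* and *Akr1b7* differed in its lowest samples, and in WT-DES *Akr1b7* had the order of *Ptgs2* and *Crisp1* did not. The whole list of 8 epididymis and vas deferens markers summed to 316 to 521 FPKM in WT-veh and 45.9 to 388 FPKM in WT-DES, and in αERKO to 20.1 to 430 FPKM with vehicle and 4.34 to 288 FPKM with DES, with *Lcn9* at 0 in every sample. *Crisp1* was the largest part of this sum in every sample, and *Lcn5*, *Lcn8*, *Adam7*, *Rnase9* and *Rnase10* were under 1 FPKM throughout. *Cst11*, the other marker above the filter, which it passed only through WT-DES, went the other way in WT, from 0.22 to 0.87 FPKM in WT-veh samples and from 8.78 to 26.06 FPKM in WT-DES samples, and stayed at or under 0.44 FPKM in αERKO. *Akr1b7* and *Crisp1* were set beside *Ptgs2* after their values were seen. Immediate early genes, which include transcripts that rise with tissue handling, summed over 9 genes to 181 to 212 FPKM with vehicle and 203 to 232 FPKM with DES in αERKO. The part of either list in the *Ptgs2* values was not tested.

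**Figure D3:**
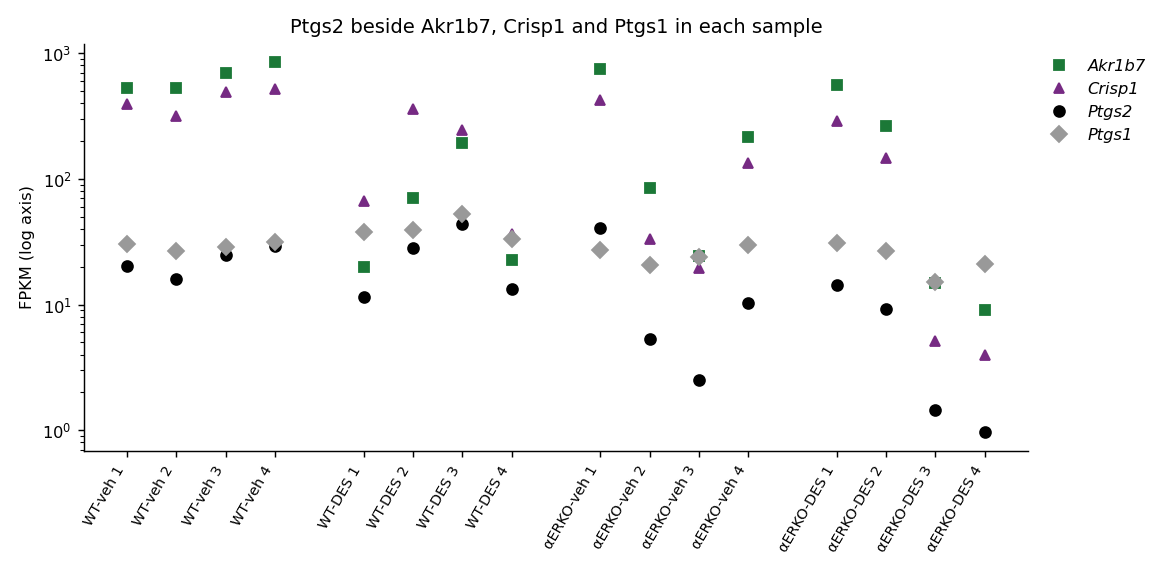
FPKM of Ptgs2, Ptgs1, Akr1b7 and Crisp1 (y axis, log scale) in each of the 16 samples (x axis). Ptgs2 runs from 0.96 to 14.37 FPKM in αERKO-DES and from 2.51 to 40.54 in αERKO-veh, with Akr1b7 and Crisp1 high and low in the same samples, while Ptgs1 stays between 14.99 and 31.09 FPKM in these 8 samples.

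To ask whether DES acted without the receptor, αERKO-DES was compared with αERKO-veh. By limma 0 of the 10 genes were called, beside 1.49% of all genes tested. An unadjusted p of 0.05 or less was found for 0 of the 10, beside 4042 of all 15988 genes tested. *Ptgds* came nearest, with a log2 change of 0.72 (95% interval -0.03 to 1.47, unadjusted p = 0.0573, adjusted p = 0.211), and with sample weights it was called. For *Ptgs2* the interval, -2.53 to 0.64, was wide.

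The interaction tested whether the DES change differed between genotypes, by subtracting the αERKO change from the WT change on the log2 scale. It was called for 6 of the 10 genes, 3 above and 3 below 0, beside 56.4% of all genes tested (29.6% above and 26.9% below). The difference was 2.20 for *Ptger4* (adjusted p = 8.55e-08), 0.94 for *Ptger2* (0.000117) and 0.85 for *Ptgis* (0.00370). It was -1.59 for *Hpgd* (7.25e-06), -1.24 for *Ptger3* (3.63e-05) and -1.63 for *Ptgds* (0.00843). *Ptger2* was tested only through its WT-DES mean and not tested without WT-DES replicate 1. It lost this call with quantile normalization, where the difference was 0.52. For *Ptgs1* the difference was 0.58 with an adjusted p of 0.0586, which passed under 9 of 28 alternatives, equal totals (1.13) and sample weights (0.80) among them. *Ptgs2* (0.89 ± 1.05 SE, adjusted p = 0.460), *Ptges* and *Ptger1* did not pass.

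**Figure D4:**
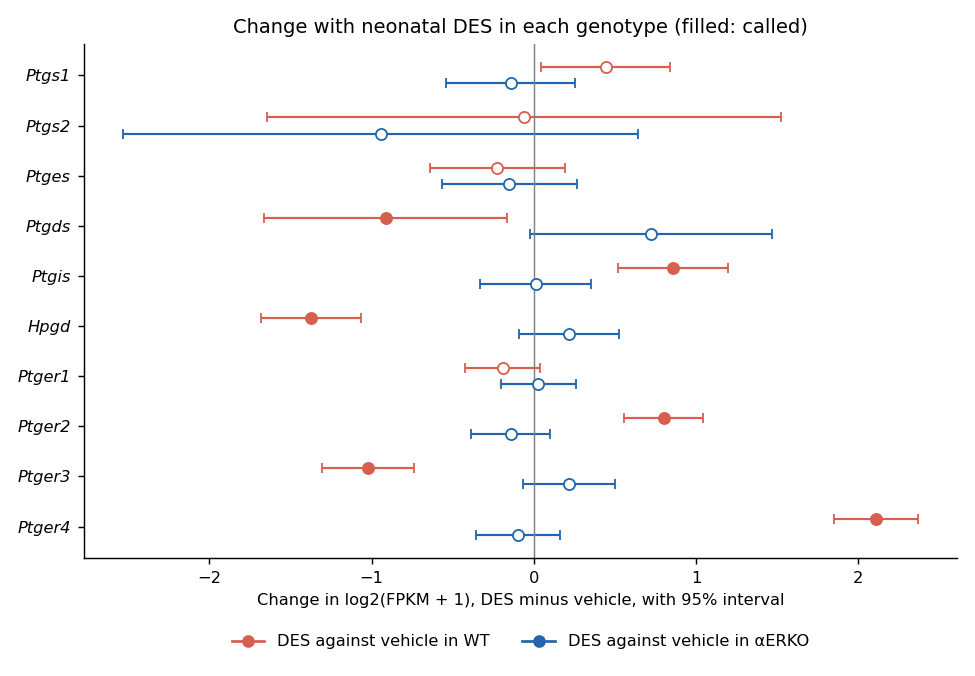
Change in log2(FPKM + 1) with DES (x axis, DES minus vehicle, with 95% interval from limma) for the 10 genes (y axis) in WT and in αERKO, n = 4 per group. Filled points are called: in WT these are Ptgds, Ptgis, Hpgd, Ptger2, Ptger3 and Ptger4, in αERKO none, and the intervals of Ptgs2 are the widest.

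The genotypes were compared without DES in αERKO-veh against WT-veh, where 0 of the 10 genes were called by limma, beside 7.12% of all genes tested. The log2 differences lay between -1.18 for *Ptgs2* (adjusted p = 0.257) and 0.63 for *Ptgds* (adjusted p = 0.197). Of the 10, 0 had an unadjusted p of 0.05 or less, beside 6222 of all 15988 genes tested. After DES, αERKO-DES differed from WT-DES in 8 of the 10 genes, 3 higher and 5 lower, beside 53.4% of all genes (23.7% higher and 29.6% lower), in a comparison that shares the WT-DES samples with the first. *Hpgd* (log2 difference 1.77), *Ptgds* (2.27) and *Ptger3* (1.07) were higher in αERKO-DES, and *Ptger4* (-2.09), *Ptger2* (-0.79), *Ptgis* (-1.10), *Ptgs1* (-0.79) and *Ptgs2* (-2.07) were lower. *Ptger2*, again tested only through its WT-DES mean, lost this call with quantile normalization (-0.38) and with the length correction (-0.75). The *Ptgs2* groups overlapped, and its call (adjusted p = 0.0203) was lost without WT-DES replicate 3 (0.0643), αERKO-DES replicate 3 (0.0675) or αERKO-DES replicate 4 (0.0732).

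Between αERKO-DES and WT-veh, which differ in both genotype and treatment, 1 of the 10 genes was called, as higher, beside 3.18% of all genes tested (1.21% higher). *Ptgds* was 3.05-fold higher in αERKO-DES (log2 difference 1.36 ± 0.350 SE, adjusted p = 0.0312). This call was lost without WT-veh replicate 2 (adjusted p = 0.0582), 3 (0.0837) or 4 (0.0807), or without αERKO-DES replicate 2 (0.0715) or 3 (0.0793). It was also lost with the replicate block (0.0547), with a pseudocount of 0.1 (0.0537) and at an adjusted p of at most 0.01. *Ptgs2* was lower in all 4 αERKO-DES samples than in any WT-veh sample but did not pass (log2 difference -2.13, adjusted p = 0.0860), except without αERKO-DES replicate 1 (0.0333) and with sample weights.

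Cell type markers moved with the DES change in WT, and in whole tissue fewer cells of a type and less RNA per cell cannot be told apart. Macrophage markers summed to 144 to 238 FPKM in WT-veh and 546 to 753 in WT-DES, and 7 of 7 rose. Endothelial markers summed to 69.0 to 79.8 and 136 to 225 FPKM, and 6 of 6 rose. Fibroblast markers summed to 731 to 881 and 1916 to 2091 FPKM, and 6 of 6 rose. These lists moved in the direction of *Ptger4*, *Ptger2* and *Ptgis*.

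Smooth muscle markers summed to 2654 to 3220 FPKM in WT-veh and 777 to 3089 in WT-DES, where replicate 1 was the highest and the next was 1172 FPKM, and 4 of 6 fell. Epithelial markers summed to 1413 to 1595 and 740 to 918 FPKM, and 4 of 6 fell. These moved in the direction of *Ptger3* and *Hpgd*, whose log2 changes stayed between -1.16 and -0.91 and between -1.50 and -1.32 when any single sample was left out. Within WT-DES, replicate 1 had the highest sum of both lists, the lowest *Ptger3* (9.23 FPKM) and the highest *Hpgd* (66.26 FPKM). No marker of these 5 lists was at 0 in all samples of a group. The αERKO groups had macrophage sums of 109 to 147 FPKM with vehicle and 102 to 162 FPKM with DES, and epithelial sums of 1105 to 1368 and 1350 to 1821 FPKM. Of the anterior prostate, which lies beside the SV and was dissected away, the secretory genes *Tgm4*, *Pbsn*, *Msmb* and *Sbp* summed to 3838 to 9416 FPKM in WT-veh and 23.0 to 377 FPKM in WT-DES, and 4 of 4 fell, in the direction of *Hpgd*, *Ptger3* and *Ptgds*. Adipose markers summed to 128 to 620 FPKM in WT-veh and 536 to 1306 FPKM in WT-DES, and 4 of 6 rose, *Lep* having been tested only through WT-DES. In αERKO the adipose sums were 33.3 to 618 FPKM with vehicle and 2.42 to 26.4 FPKM with DES. In αERKO-DES, 5 of 6 were lower than in WT-veh and 6 of 6 lower than in WT-DES, while *Ptgds* was higher in both comparisons. The part of cell makeup in the changes of the 10 genes was not tested.

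The pattern over all 16 samples was set beside that of the other 15987 genes tested, for each gene with a called interaction. By Pearson's r of log2(FPKM + 1), the most similar gene to *Ptger4* was *Gm1966* (r = 0.993), to *Ptger2* *Farp1* (0.984) and to *Hpgd* *Hps1* (0.983). For *Ptgis* it was *Kifc3* (0.978), for *Ptger3* *Ubqln4* (0.965) and for *Ptgds* *Ccni* (0.946). The 16 samples fall into 4 groups and share libraries between genes, so these values describe likeness only.

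Other genes of the eicosanoid pathways were counted in 5 lists, in WT-DES against WT-veh. Among all genes tested 28.9% rose and 23.9% fell, against which these counts are to be read. Of 13 tested genes that release arachidonate, 4 rose, 3 fell and 6 were not called. Of 9 other prostanoid synthases, 3 rose, 5 fell and 1 was not called. Of the other prostanoid receptors and the receptor partner *Ptgfrn*, 4 were tested, of which 3 rose, 0 fell and *Ptgfrn* was not called. *Ptgdr* and *Ptgdr2* (listed as *Gpr44*) did not pass the minimum. Of 5 genes of transport and inactivation, 1 rose, 1 fell and 3 were not called. Of 10 genes of the lipoxygenase and leukotriene branch, 7 rose, 1 fell and 2 were not called. *Pla2g4c*, *Pla2g2d*, *Hpgds*, *Ptgfr*, *Ptgir*, *Cysltr1* and *Cysltr2* passed the minimum only through WT-DES, where their means were highest, so the counts that rose are partly set by the filter. In αERKO-DES against αERKO-veh, 0 genes of any of these lists were called. Median log2 changes in WT were 0.25, -0.68, 1.29, 0.17 and 0.88 in the same order, beside -0.01 over all genes tested.

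Among the phospholipases and lipases, *Pla2g12a*, a secreted phospholipase A2, ran from 88.88 to 102.18 FPKM in WT-veh and from 16.98 to 18.89 FPKM in WT-DES (log2 change -2.36, adjusted p = 3.42e-10). *Abhd12*, a lysophospholipid lipase, ran from 347.91 to 392.08 and from 86.16 to 139.87 FPKM (-1.85, adjusted p = 1.58e-08). *Pla2g7*, which degrades platelet-activating factor, ran from 11.96 to 14.09 and from 31.71 to 67.49 FPKM (1.74, adjusted p = 3.54e-07). None of these groups overlapped. *Pla2g2d*, another secreted phospholipase, rose as well, from 0.66 to 1.39 FPKM in WT-veh samples to 1.90 to 9.70 FPKM in WT-DES samples (1.45, adjusted p = 0.000508). It passed the minimum, and the mean of 5 FPKM for naming, only through WT-DES, where it is high. *Pla2g4a*, the cytosolic phospholipase A2 that supplies cyclooxygenases and is named here after its values were seen, ran from 15.10 to 18.02 and from 25.26 to 36.59 FPKM (0.90, adjusted p = 2.18e-06).

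Among the synthases, *Tbxas1*, the thromboxane synthase, ran from 0.68 to 2.04 FPKM in WT-veh and from 6.00 to 8.36 FPKM in WT-DES (log2 change 1.84, adjusted p = 1.34e-07). It reached the naming mean only through WT-DES. The aldo-keto reductases went in both directions: *Akr1b8* rose (2.33, adjusted p = 1.37e-06), while *Akr1b3* (-1.59, adjusted p = 1.92e-06) and *Akr1b7* (-3.65, adjusted p = 0.0152) fell. These are close paralogs, and how shared reads were divided is not given in the sources used here. *Akr1b7* measured 528.74, 530.38, 695.15 and 845.49 FPKM in WT-veh and 19.81, 70.85, 191.77 and 22.44 FPKM in WT-DES. Its interaction was not called (adjusted p = 0.183).

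Around the receptors, *Abcc4*, a transporter that exports prostaglandins, ran from 2.90 to 3.91 FPKM in WT-veh and from 7.76 to 19.29 FPKM in WT-DES (log2 change 1.35, adjusted p = 5.65e-05). *Ptgr1*, which reduces the product of *Hpgd* further, ran from 77.70 to 86.14 and from 29.06 to 63.74 FPKM (-1.03, adjusted p = 0.000137). Both groups were separate in each. In the lipoxygenase branch, *Alox15* ran from 0.25 to 1.17 and from 6.03 to 25.09 FPKM (2.77, adjusted p = 8.69e-06), and *Ltb4r1*, a leukotriene B4 receptor, from 2.04 to 2.80 and from 4.28 to 6.50 FPKM (0.95, adjusted p = 2.99e-05). *Abcc4*, *Alox15* and *Ltb4r1* likewise reached the mean of 5 FPKM for naming only through WT-DES, where they are high. The other prostanoid receptors were below 5 FPKM on average and are named after their values were seen, *Ptgfr* and *Ptgir* having been tested only through their WT-DES level. *Ptgfr*, the prostaglandin F receptor, ran from 0.14 to 0.20 FPKM in WT-veh and from 2.33 to 5.82 FPKM in WT-DES (2.23, adjusted p = 4.95e-08). *Ptgir*, the prostacyclin receptor, ran from 0.71 to 0.91 and from 3.49 to 3.88 FPKM (1.36, adjusted p = 4.71e-08). *Tbxa2r*, the thromboxane receptor, ran from 0.90 to 1.88 and from 2.80 to 8.50 FPKM (1.21, adjusted p = 0.000645).

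**Figure D5:**
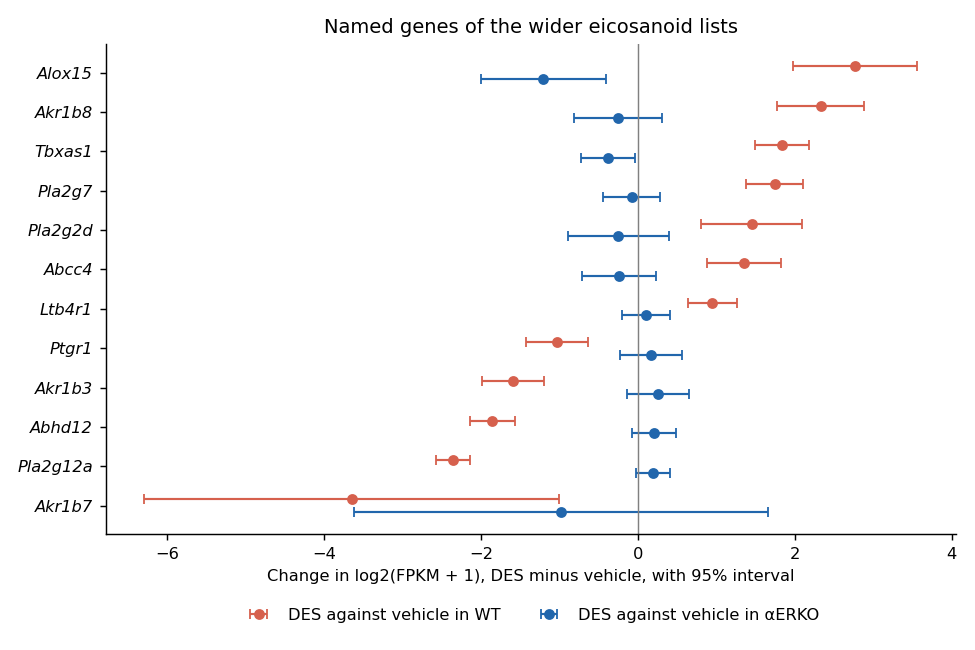
Change in log2(FPKM + 1) with DES (x axis, DES minus vehicle, with 95% interval from limma) for 12 genes of the wider eicosanoid lists (y axis), chosen for being called in WT with a mean of at least 5 FPKM in WT-veh or WT-DES, in WT and in αERKO (n = 4 per group). In WT 7 lie above 0, of which Alox15, Tbxas1, Ltb4r1, Abcc4 and Pla2g2d reached that mean only through WT-DES, and 5 below, so the choice partly sets this split, and in αERKO 0 are called, with Akr1b7 showing the widest intervals.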

How the data were processed

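RNA-seq of week 5 seminal vesicles was used in 16 samples, grouped by the deposited labels (4 per group). The authors filtered paired-end HiSeq reads at a mean quality above 20, aligned them to mm10 with TopHat2 2.0.4 and obtained the deposited values with Cufflinks 2.0.2 as FPKM of each gene. The gene annotation and any scaling between libraries are not given in the sources used here. FPKM are given to 2 decimals and no read totals were used, so depth per sample is unknown and precision rests on the spread between samples. Where WT-DES samples came from pools, their spread is between pools. The model shares a variance per gene over all 16 samples, so p-values mix this with the spread between individual mice.

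Values were analysed as log2(FPKM + 1), a scale that understates changes of low genes, in R 4.3.3 with limma 3.58.1. All 16 samples entered 1 model of group means, variances were moderated along their trend, and p-values were adjusted by the Benjamini-Hochberg method over 15988 genes. Counts were not at hand for the Cuffdiff test of the study, but its thresholds (0.05, 1.5-fold, mean FPKM above 1) were kept. No columns were identical. The fit was tested on simulated data. The members, gene lists, marker lists and promoters were chosen with earlier results of these data known. All 10 members are named. Genes of the 5 pathway lists were named when called in WT-DES against WT-veh with a mean of at least 5 FPKM, up to 12 by size of change, with exceptions stated. For each member with a called interaction, the 1 gene with the highest r was named. Gene coordinates and exon overlaps, checked for the 10 members, are from GENCODE M21 (GRCm38), promoters from RefSeq. Alternatives were another pseudocount, minimum, threshold, scaling, sample set, sample weights, replicate block, transcript length correction and leaving out each sample. Replicate numbers did not pair the samples. A marker gene and an exon overlap are not reported here.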

Additional observations from a re-analysis of the deposited data

Results flagged for a closer look

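Single samples stood apart from the 3 others of their group by Dixon's ratio of the gap to the whole range, in 10 of 88 groups examined over 22 genes, where chance gives about 1 in 20. In WT-DES these were *Hpgd* in replicate 1 (66.26 FPKM, others 44.99 to 48.42, ratio 0.839) and *Ptger4* in replicate 2 (15.07 FPKM, others 9.88 to 10.60, ratio 0.861). *Alox15* in WT-DES replicate 2 (25.09 FPKM, others 6.03 to 9.17, ratio 0.835), *Abhd12* in replicate 1 (139.87 FPKM, others 86.16 to 92.95, ratio 0.874) and *Abcc4* in replicate 1 (19.29 FPKM, others 7.76 to 9.23, ratio 0.873) did so too. *Ptges* in WT-veh replicate 4 was high (51.80 FPKM, others 44.15 to 45.18, ratio 0.865). In αERKO-veh, *Ptger1* was low in replicate 1 (13.65 FPKM, others 16.85 to 17.31, ratio 0.874), and replicate 3 was high for *Ptger3* (26.57 FPKM, others 20.74 to 21.59, ratio 0.854) and *Pla2g12a* (126.78 FPKM, others 84.38 to 90.55, ratio 0.854). *Ptger3* was low in αERKO-DES replicate 1 (24.19 FPKM, others 26.73 to 26.97, ratio 0.914).

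The change with DES differed between genotypes by the interaction test of limma for 6 of the 10 genes, beside 56.4% of all genes tested. With the αERKO change subtracted from the WT change on the log2 scale, the difference was -1.63 for *Ptgds*, 0.85 for *Ptgis*, -1.59 for *Hpgd*, 0.94 for *Ptger2*, -1.24 for *Ptger3* and 2.20 for *Ptger4*. Over the 5 lists of other pathway genes, the interaction was called higher and lower for 6 and 3 of 13 tested genes of arachidonate release, 3 and 4 of 9 synthases, 3 and 0 of 4 receptors, 2 and 1 of 5 genes of transport and inactivation, and 7 and 1 of 10 of the lipoxygenase branch, beside 29.6% and 26.9% of all genes tested. *Pla2g4c*, *Pla2g2d*, *Hpgds*, *Ptgfr*, *Ptgir*, *Cysltr1* and *Cysltr2*, and *Ptger2* of the 10, were tested only through WT-DES. The counts called higher are therefore partly set by the filter. The pathway genes named here were chosen for a call in WT-DES against WT-veh, a change that is part of this difference, so their values are a description. The difference was 3.97 for *Alox15*, 2.58 for *Akr1b8*, 2.22 for *Tbxas1*, 1.82 for *Pla2g7*, 1.70 for *Pla2g2d*, 1.59 for *Abcc4* and 0.84 for *Ltb4r1*. It was -2.55 for *Pla2g12a*, -2.06 for *Abhd12*, -1.85 for *Akr1b3* and -1.20 for *Ptgr1*.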

How the results depend on the processing

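The 60 log2 changes of the 10 genes were recomputed under up to 29 alternatives, giving 1718 values: 1677 kept their call or its absence, 26 lost a call, 15 gained one and 0 called values changed direction. The calls of *Ptger4*, *Hpgd*, *Ptger3* and *Ptgis* in WT-DES against WT-veh held in all 29. *Ptger2* was not tested without WT-DES replicate 1 or with a minimum of 5 FPKM, and gave no value there. Of the 10 genes, the number called in αERKO-DES against WT-veh was 1, and 0 with a pseudocount of 0.1, with the replicate block and at an adjusted p of at most 0.01, and 2 with sample weights, with a range of 0 to 2 when single samples were left out. With sample weights 1 gene (*Ptgds*) was called in αERKO-DES against αERKO-veh and 1 (*Ptgds*) in αERKO-veh against WT-veh, in place of 0. The replicate block changed no other member call. Same-numbered samples correlated in their deviations between -0.215 and 0.277, with 3 of 24 pairs above 0.1 and 6 best with their own number.

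Over all genes, calls in αERKO-DES against αERKO-veh were 239, and from 1 to 1119 under the alternatives (1119 with sample weights, 1 without αERKO-veh replicate 4). In αERKO-DES against WT-veh they were 508, and from 156 (adjusted p of at most 0.01) to 1002 (sample weights). In αERKO-veh against WT-veh they were 1139, and 402 at an adjusted p of at most 0.01, 418 without αERKO-veh replicate 2, 715 without WT-veh replicate 3 and 455 with the length correction. They were 1691 without αERKO-veh replicate 1, 1684 with sample weights and 1575 with equal totals. Equal totals without the 20 most abundant genes moved the median log2 change of all genes in WT-DES by 0.37 and the share of its calls that were higher from 54.7% to 78.6%. It moved this share from 63.1% to 92.3% in αERKO-veh against WT-veh, from 44.5% to 24.2% in αERKO-DES against WT-DES, from 38% to 51.8% in αERKO-DES against WT-veh (59.2% with quantile normalization) and from 52.4% to 78.3% in the interaction. Depth is unknown, and the low values of *Ptger2* carry an unknown counting error.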

Other observations

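Other marker lists were measured in the same samples. In WT-DES against WT-veh, 6 of 8 leukocyte markers rose, while *Cd52* fell and set the sum (2974 to 3165 FPKM in WT-veh, 718 to 1104 FPKM in WT-DES). Of the mast cell markers tested 5 of 5 rose, as did 5 of 5 neutrophil markers, of which *S100a9*, *Csf3r*, *Cxcr2* and *Mpo* passed the minimum only through WT-DES, so that this count is largely set by the filter. Immediate early genes rose in 5 of 9 and fell in 1. In αERKO-DES against αERKO-veh, where 0 of the 10 prostaglandin genes were called, 5 of 8 skeletal muscle markers and 4 of 6 adipose markers fell. Skeletal muscle markers summed to 584 to 1918 FPKM with vehicle and 480 to 681 FPKM with DES in αERKO, and to 569 to 1607 FPKM in WT-veh and 36.0 to 329 FPKM in WT-DES, where 2 of 8 fell. Single samples set the upper ends in WT: WT-veh replicate 4 (others 569 to 615 FPKM) and WT-DES replicate 1 (others 36.0 to 86.1 FPKM).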
